A study of Mus musculus with 3 samples.

Results

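The 43 genes described here act in the cell cycle: 16 are expressed mainly around DNA replication (S phase), 24 mainly in G2 and mitosis, and 3 (Stmn1, Tubb5 and Hmgb2) are abundant in dividing cells and also present outside them. They were taken by name from the count tables of 3 mouse whole-skin single-cell libraries, and all 43 were found among 26989 listed genes. The mice were C57BL/6 animals 9 weeks old. The control library came from normal skin given saline and the UV library from irradiated skin given saline. The last library came from irradiated skin given VD, taken to mean the vitamin D that the title names, and is called the vitamin D library. Cells were prepared with a Singleron GEXSCOPE kit, and by its title the study asks whether vitamin D protects UVB-exposed skin from the inflammation of photoaging. The labels give neither the UV dose nor the number of animals per library.

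A cell that divides first copies its DNA and then separates the copies. Before S phase the Mcm proteins load on DNA as the replicative helicase, Pcna clamps the polymerases to it, and ribonucleotide reductase (Rrm1, Rrm2), thymidylate synthase (Tyms) and thymidine kinase (Tk1) supply nucleotides. Cyclins A and B with Cdk1 then drive entry into mitosis, where Top2a untangles chromosomes, centromere proteins and kinesins move them, and Ube2c and Cdc20 help mark mitotic proteins for degradation. In skin, basal keratinocytes divide and suprabasal keratinocytes leave the cycle, while the matrix at the base of a growing hair follicle divides rapidly.

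Many of these genes share short promoter motifs: the CHR element, often found in mitotic genes, the CCAAT box bound by NF-Y, and E2F sites, often found in S-phase genes. The RefSeq promoter table (build GRCm38.p6) held 35 of the 43 members, and the 250 bases before the annotated start were searched on both strands for TTTGAA or TTCGAA (CHR), CCAAT, and TTTCCCGC, TTTCGCGC, TTTGCCGC or TTTGGCGC (E2F). CCAAT was found in 18 of 20 mitotic promoters (90.0%) and 9 of 13 S-phase promoters (69.2%), against 34.5% of 27025 promoters of the same length. CHR letters were found in 8 of 20 mitotic promoters (40.0%) and 2 of 13 S-phase promoters (15.4%), against 17.4% of all. E2F letters were found in 1 of 20 mitotic promoters (5.0%) and 4 of 13 S-phase promoters (30.8%), against 1.91% of all. A match is a description of letters, not of a bound site. The TTCGAA letters read the same on both strands, and an E2F match on one strand can overlap one on the other, as in Mcm5 and Mcm6.

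Of the 6 promoters shown, 3 belong to mitotic members that were several-fold higher in basal cells of the UV library (Ccnb1, chr13:100786487-100786736 on the minus strand; Top2a, chr11:99024190-99024439 on the minus strand; Cdk1, chr10:69352913-69353162 on the minus strand). Rrm2 is the S-phase member with the highest such ratio (chr12:24708004-24708253 on the plus strand), and Mcm5 (chr8:75109259-75109508 on the plus strand) and Mcm6 (chr1:128359706-128359955 on the minus strand) are S-phase members with ratios near 1. Each is written 5′ to 3′ toward the gene, with letters of any of the searched motifs in capitals.
Ccnb1: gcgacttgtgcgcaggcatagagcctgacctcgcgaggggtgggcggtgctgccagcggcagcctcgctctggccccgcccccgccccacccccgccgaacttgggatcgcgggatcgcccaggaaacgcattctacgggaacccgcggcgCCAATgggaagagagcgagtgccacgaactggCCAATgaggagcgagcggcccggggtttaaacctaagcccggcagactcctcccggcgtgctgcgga
Top2a: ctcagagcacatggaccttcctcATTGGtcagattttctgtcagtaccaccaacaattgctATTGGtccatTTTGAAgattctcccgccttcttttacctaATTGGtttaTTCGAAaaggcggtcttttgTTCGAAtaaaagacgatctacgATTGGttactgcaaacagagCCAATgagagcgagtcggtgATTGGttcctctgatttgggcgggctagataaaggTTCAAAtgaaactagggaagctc
Cdk1: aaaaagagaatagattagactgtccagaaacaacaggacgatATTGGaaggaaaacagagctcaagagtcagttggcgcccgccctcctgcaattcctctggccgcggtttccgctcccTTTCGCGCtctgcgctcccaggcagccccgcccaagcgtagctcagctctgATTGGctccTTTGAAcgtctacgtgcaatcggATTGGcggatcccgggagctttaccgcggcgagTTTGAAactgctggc
Rrm2: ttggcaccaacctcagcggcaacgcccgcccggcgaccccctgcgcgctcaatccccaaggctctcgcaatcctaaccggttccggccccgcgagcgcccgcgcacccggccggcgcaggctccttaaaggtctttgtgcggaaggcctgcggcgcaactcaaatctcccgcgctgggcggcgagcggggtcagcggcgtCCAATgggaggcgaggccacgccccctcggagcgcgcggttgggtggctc
Mcm5: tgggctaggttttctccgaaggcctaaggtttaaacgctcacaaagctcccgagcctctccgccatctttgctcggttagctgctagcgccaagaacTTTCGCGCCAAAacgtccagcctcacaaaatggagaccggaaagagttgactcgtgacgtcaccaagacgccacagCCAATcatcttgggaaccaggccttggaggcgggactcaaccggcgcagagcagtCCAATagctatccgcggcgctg
Mcm6: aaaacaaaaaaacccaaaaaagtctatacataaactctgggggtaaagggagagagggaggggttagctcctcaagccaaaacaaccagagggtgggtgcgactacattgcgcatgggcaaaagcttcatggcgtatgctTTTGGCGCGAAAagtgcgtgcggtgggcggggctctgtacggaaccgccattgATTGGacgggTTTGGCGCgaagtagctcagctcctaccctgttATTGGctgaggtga
Ccnb1 and Rrm2 held CCAAT letters only, Top2a held CHR and CCAAT letters, Cdk1 held all 3 motifs, and both Mcm promoters held CCAAT and E2F letters.

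The filtered libraries held 9078 control, 5451 UV and 6199 vitamin D cells and 79450666, 50610389 and 69126823 counts, with medians of 6822.5, 7566 and 9301 counts per cell. The library pairs shared 37 to 66 cell barcodes. There was 1 library per group, so no difference was tested, and each comparison describes these libraries and not the conditions. Levels are given as CPM: a gene's counts in a cell class of a library, scaled so that all counts of that class there sum to 1000000. Intervals in square brackets are 95% intervals that cover counting error only. They are exact or conditional, except for ratios of shares, which use a log-scale approximation. Those of levels and of their ratios treat each count as independent. They leave out the sampling of cells and are too narrow where counts gather in few cells. Cells were clustered without the members among the variable genes, and classes were named "-like" from marker genes. The basal-like class held 1717, 463 and 763 cells (18.9%, 8.49% and 12.3% of the control, UV and vitamin D libraries). A cluster with both basal and suprabasal markers was kept apart as transitional, by a rule set after seeing the data, and held 22.8%, 1.96% and 8.11% of cells. The UV library is used in both the comparison with control and the comparison with vitamin D, so those comparisons are not independent.

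In basal-like keratinocytes the mitotic members stood higher in the UV library than in the control, and between the other libraries in the vitamin D library. Their summed level was 173 CPM [165, 181] in the control, 663 [632, 695] in the UV library and 336 [321, 353] in the vitamin D library. The UV sum was 3.84 times the control [3.59, 4.10], and the vitamin D sum was 0.508 times the UV sum [0.475, 0.543] and 1.95 times the control [1.82, 2.08]. The S-phase sum differed less, with 266 CPM in the control, 350 in the UV library and 306 in the vitamin D library. The UV sum was 1.32 times the control [1.22, 1.42], and the vitamin D sum 0.874 times the UV sum [0.805, 0.95].

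A member was called when its CPM ratio was at least 1.5-fold with at least 20 counts over both libraries. Between UV and control, 39 members had enough counts in basal-like cells, of which 28 were higher and 1 was lower in the UV library, while 13.0% of 9917 genes were higher and 13.8% lower. All 21 mitotic members with enough counts were higher (median log2 ratio 2.22), against 5 of 15 S-phase members (median 0.30), and the median of all genes was -0.03. Between vitamin D and UV, 24 of 37 members were lower and 0 higher, while 9.98% of 9075 genes were lower and 12.3% higher. The 24 were all 21 mitotic members with enough counts and 3 of 13 S-phase members, Rrm2, Tyms and Tk1. Between vitamin D and control, 21 of 39 were higher and 0 lower, while 9.16% of 10175 genes were higher and 7.48% lower. These 21 comprised 17 of 21 mitotic and 3 of 15 S-phase members, and Stmn1. Plk1, Aurka, Kif20a and Ccne1 had under 20 counts in every comparison, as did Cdc6 and Ccne2 between vitamin D and UV. Cdc6, which loads the helicase, was the member called lower in the UV library than in the control, on 19 and 3 counts, a count that moved in 13 of the alternatives tried, mostly to 0.

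**Figure D1:**
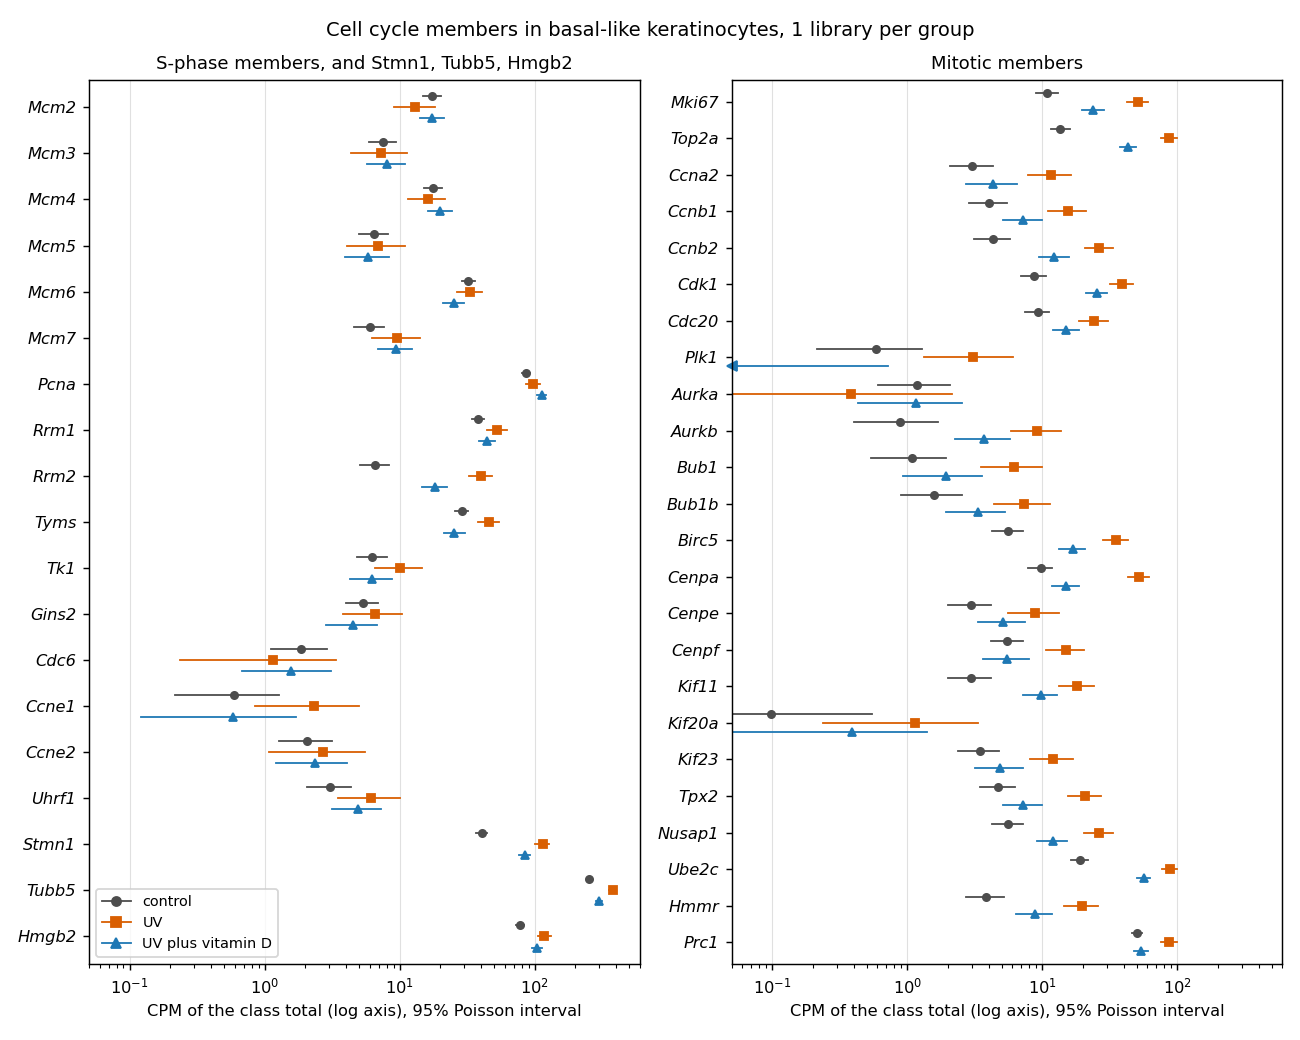
CPM of each of the 43 members in basal-like keratinocytes of the control, UV and vitamin D libraries (log axis), with 95% Poisson intervals; an arrowhead at the left edge marks 0 counts. Most mitotic members lie highest in the UV library and between the others in the vitamin D library, while Mcm2 to Mcm6 overlap in all 3 libraries.

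Among the helicase genes, Mcm2 was at 17.4, 13.0 and 17.4 CPM in the control, UV and vitamin D libraries, Mcm5 at 6.48, 6.91 and 5.86 CPM, and Mcm6 at 32.2, 33.0 and 25.0 CPM. The ratios of UV to control for Mcm2 to Mcm6 ran from 0.751 to 1.07, each with an interval that includes 1; Mcm2 and Mcm4 had the lowest ratios of the S-phase members with at least 50 counts, at 0.751 [0.504, 1.09] and 0.913 [0.636, 1.28]. Mcm7 stood apart from them with 5.99, 9.59 and 9.38 CPM, a UV to control ratio of 1.60 [0.964, 2.59]. Of the S-phase members with at least 50 counts, Mcm2 and Mcm4 had the highest ratios of vitamin D to UV, 1.33 [0.889, 2.04] and 1.24 [0.856, 1.82]. Mcm6 and Gins2, a subunit of the active helicase, had the lowest ratios of vitamin D to control under the same limit, 0.777 [0.629, 0.957] and 0.849 [0.497, 1.41]. Pcna, the clamp, was at 86.5, 97.5 and 113 CPM and did not pass 1.5-fold in any comparison.

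The nucleotide supply genes were less alike. Rrm2, the cycle-regulated subunit of ribonucleotide reductase, was at 6.57, 39.9 and 18.2 CPM in the control, UV and vitamin D libraries. Its UV to control ratio, 6.07 [4.42, 8.38], was the highest of the S-phase members with at least 50 counts, and its ratio of vitamin D to UV, 0.456 [0.341, 0.608], the lowest. Its partner subunit Rrm1 was at 38.0, 52.6 and 44.2 CPM, a smaller difference between libraries than in Rrm2. Tyms was at 28.7, 45.7 and 25.4 CPM, which put the vitamin D library at 0.556 times the UV library [0.431, 0.720] and near the control (ratio 0.887 [0.716, 1.09]). Uhrf1, which helps copy DNA methylation, was at 3.04, 6.14 and 4.89 CPM, with a vitamin D to control ratio of 1.61 [0.910, 2.81] that, with at least 50 counts required, is second to that of Rrm2, 2.77 [2.0, 3.84].

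Mki67, the source of the Ki-67 proliferation antigen, was at 10.9, 51.0 and 23.8 CPM in basal-like cells of the control, UV and vitamin D libraries. Top2a was at 13.6, 87.1 and 43 CPM and Birc5, a member of the complex that corrects chromosome attachment, at 5.59, 34.9 and 16.8 CPM. These had the highest UV to control ratios of the mitotic members with at least 50 counts, 6.39 [5.15, 7.95] for Top2a and 6.24 [4.44, 8.85] for Birc5. The Cdk1 kinase was at 8.63, 38.8 and 25.4 CPM and its partner Ccnb1 (cyclin B1) at 4.02, 15.4 and 7.23 CPM. Ube2c was at 18.9, 87.5 and 56.3 CPM. In each of these 6 genes the order was the same: UV highest, control lowest, and the vitamin D library between them.

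Prc1, which bundles microtubules between separating chromosomes, and Cdc20 had the lowest UV to control ratios of the mitotic members with at least 50 counts, 1.72 [1.47, 2.02] and 2.62 [1.87, 3.65]. Prc1 was at 50.3, 86.7 and 53.6 CPM, so the vitamin D library lay near the control. Among the same members, the vitamin D library was lowest against the UV library for Cenpa, the centromeric histone, at 9.71, 51.8 and 14.9 CPM (ratio 0.287 [0.214, 0.383]), and Tpx2, a spindle assembly factor, at 4.71, 20.7 and 7.23 CPM (0.349 [0.223, 0.540]). Cdk1 and Ube2c had the highest such ratios, 0.656 [0.502, 0.859] and 0.643 [0.539, 0.769], both with intervals below 1. Against the control, again among members with at least 50 counts, the vitamin D library was highest for the spindle motor Kif11 (2.94, 18.0 and 9.77 CPM; ratio 3.32 [2.07, 5.41]) and Top2a (3.15 [2.54, 3.93]), and closest to it for Cenpf (5.49, 15 and 5.47 CPM; ratio 0.996 [0.609, 1.59]) and Prc1 (1.06 [0.916, 1.23]). The position of the vitamin D library between control and UV thus varied from member to member.

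The tubulin binding protein Stmn1 was at 40.5, 114 and 83.9 CPM, the tubulin Tubb5 at 251, 376 and 299 CPM, and the chromatin protein Hmgb2 at 77.4, 117 and 104 CPM. Their UV to control ratios were 2.80 [2.41, 3.26], 1.5 [1.39, 1.61] and 1.52 [1.32, 1.73], below those of most mitotic members.

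To count cells, each cell was thinned to 2500 counts, which all cells had, and scored for at least 3 members of a list. In basal-like cells the share with at least 3 mitotic members was 2.91% [2.17, 3.82] (50 of 1717) in the control, 14.5% [11.4, 18.0] (67 of 463) in the UV library and 7.99% [6.17, 10.2] (61 of 763) in the vitamin D library. The UV share was 4.97 times the control [3.50, 7.06], and the vitamin D share 0.552 times the UV share [0.398, 0.766]. Without thinning the shares were 4.89%, 18.6% and 14.8%, at median depths of 4617, 4943 and 5211 counts, and the last ratio was 0.797. The share with at least 3 S-phase members was 2.97%, 6.05% and 4.59% thinned, and 12.7%, 13.0% and 15.9% unthinned. Thinned, the UV share was 2.04 times the control [1.30, 3.19], a ratio that was 1.02 without thinning and 1.13 with at least 2 genes; the S-phase share thus depends on the way cells are scored. The class is a range and not a type: 46, 28 and 42 basal-like cells lay at 2 or 3 mitotic members.

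The cells that reached 3 mitotic members had a summed mitotic level of 2864, 3105 and 2516 CPM in the control, UV and vitamin D libraries, and those below it 86.0, 157 and 145 CPM; the score itself sets this split. The S-phase sum, which the score did not use, was 758, 1049 and 870 CPM in the former cells and 250, 206 and 257 CPM in the latter. Among cells with fewer than 3 mitotic members, Mcm6 was at 30.8, 23.6 and 21.9 CPM and Pcna at 84.1, 70.9 and 108 CPM. Most Mcm6 and Pcna counts of the class came from these cells. In the control they held 304 of 328 Mcm6 counts, and in the UV library 51 against 35 in the cells that reached 3. By contrast, 99 of 139 Top2a counts and 71 of 111 Mki67 counts came from the 50 control cells that reached 3. Prc1 was at 43.1, 54.2 and 39.1 CPM in cells with fewer than 3 mitotic members. In the control those cells held 426 Prc1 counts, out of 1760 mitotic counts in the class. No sum without Prc1 is given here. In cells with at least 3 mitotic members, 12, 22 and 21 cells also had at least 3 S-phase members.

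By cluster, the largest basal-like cluster, led by Krt14 and Fcgbp, had at least 3 mitotic members in 1.77% (16 of 903), 4.15% (13 of 313) and 2.69% (12 of 446) of its cells. Its order was that of the class, at a lower level, but on few scoring cells and with no intervals computed. The other larger basal-like clusters had few such cells: 2 of 415, 0 of 66 and 1 of 138 in a Krt15-containing cluster led by Krt5 and Il33, and 2 of 351, 0 of 18 and 1 of 107 in one led by Atf3 and Fos. A small basal-like cluster led by Hist1h1b and cell cycle genes, which formed although the members were left out of the variable genes, held 48, 66 and 72 cells and most of the scoring cells (30, 54 and 47). Basal markers summed to 20681, 23656 and 20613 CPM and spinous markers to 15546, 7912 and 14486 CPM, so spinous markers were lowest where the mitotic members were highest; their part in the result was not tested. Hair matrix markers summed to 345, 201 and 395 CPM, lowest in the UV library. As a background, granular cells led by Lor or Lce1 genes, which have left the cycle, had 0 of 138, 1 of 102 (0.980%) and 0 of 292 cells with at least 3 mitotic members at median depths of 11570.5, 13914 and 11699.5 counts. The zeros allow shares of up to 2.17% and 1.03%. Their mitotic sums, 8.96, 32.2 and 17.2 CPM, had the same order as those of the basal-like cells at a much lower level.

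**Figure D2:**
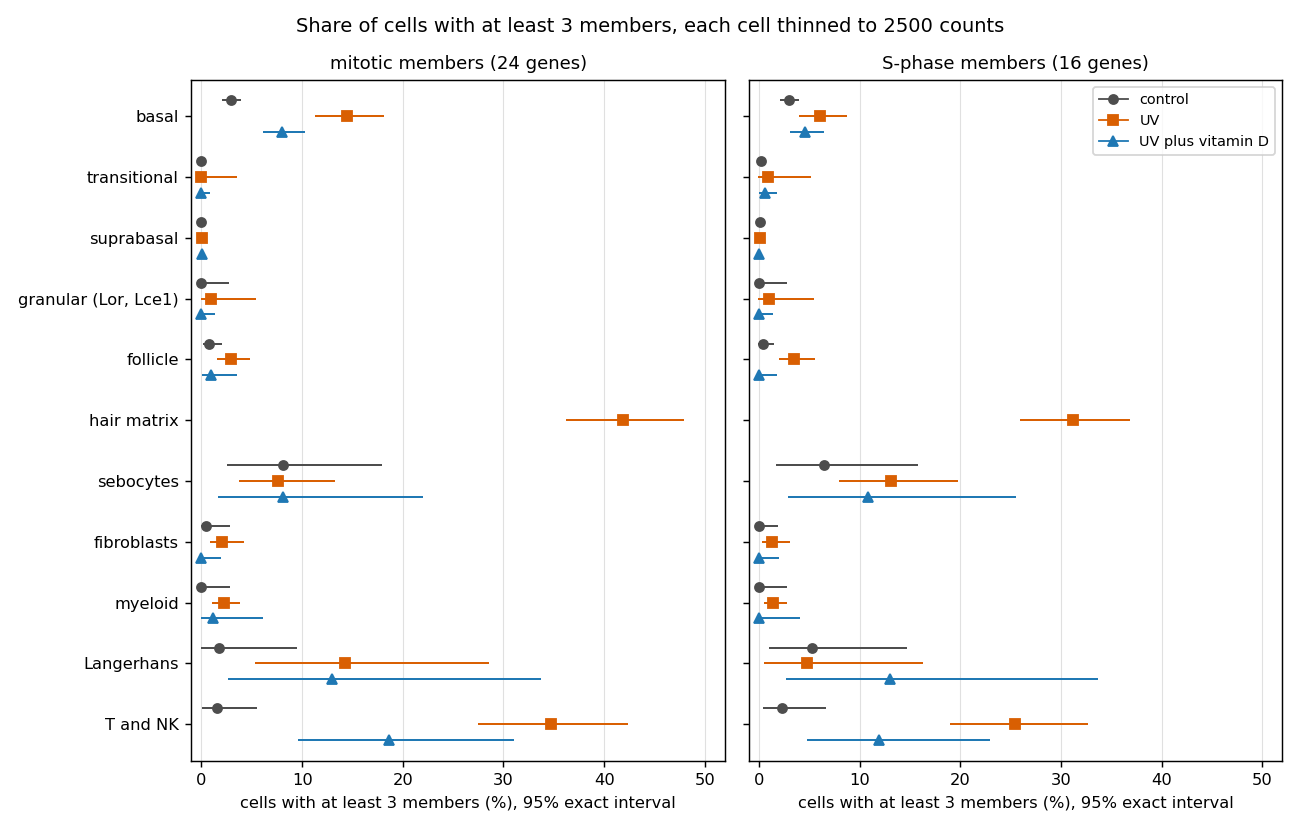
Share of cells with at least 3 mitotic (left) or S-phase (right) members in each cell class and library, after thinning to 2500 counts, with 95% exact binomial intervals (counting error only). The UV library has the highest mitotic share in the basal, follicle, T and NK, myeloid and fibroblast classes, hair matrix cells were found only in that library, and suprabasal shares lie near 0.

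Of 46 other G2 and mitosis genes, 38 had enough counts in basal-like cells, and 32 were higher and 0 lower in the UV library than in the control (median log2 ratio 1.68). Of 38 other replication genes 27 had enough counts, with 15 higher and 0 lower (median 0.67). Between vitamin D and UV, 20 of 37 of the G2 and mitosis genes and 10 of 24 of the replication genes were lower, and 1 and 0 higher. In that comparison 9.98% of 9075 genes were lower and 12.3% higher. Of 24 regulators of G1, 2 of 20 with enough counts were higher and 4 lower between UV and control, against 13.0% and 13.8% of all genes. Cdk4, which drives G1, was at 64.8, 95.9 and 79.6 CPM, and its cyclin partners Ccnd1 at 108, 82.9 and 69.8 CPM and Ccnd2 at 407, 224 and 250 CPM. Cdkn1a, the inhibitor p21, was at 1473, 918 and 1623 CPM, so it was 1.60-fold lower [1.54, 1.68] in the UV library than in the control and 1.77-fold higher [1.69, 1.85] in the vitamin D library than in the UV library. Cdkn1b (26.2, 30.7 and 23.5 CPM) and Myc (78.1, 54.1 and 66.3 CPM) did not pass 1.5-fold in either comparison. E2f1, on 10, 1 and 2 counts, and Cdkn1c, on 17, 2 and 14 counts, were too low to compare.

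In suprabasal-like keratinocytes (4033, 1522 and 4142 cells) the members were low. The summed mitotic level was 25.8, 25.3 and 18.7 CPM, close between UV and control (ratio 0.979 [0.882, 1.08]) and lower in the vitamin D library, at 0.740 times the UV sum [0.666, 0.824] and 0.725 times the control [0.667, 0.787]. The S-phase sum was 107, 93.1 and 101 CPM. The share of cells with at least 3 mitotic members was 0 of 4033 (up to 0.0744%), 1 of 1522 (0.0657%) and 1 of 4142 (0.0241%), and without thinning, at a median of 11311 to 12830 counts, 0.273%, 0.460% and 0.241%. Between UV and control 11 of 31 members were higher and 5 lower, while 12.3% of 12034 genes were higher and 13.7% lower. For vitamin D against UV, 3 of 30 were higher and 9 lower, while 7.18% of 12128 genes were higher and 10% (1217 genes) lower. Clusters led by Stfa3 (16, 562 and 48 cells, with suprabasal markers) and by Rptn and Flg (108, 380 and 98 cells) entered no class. In the Rptn and Flg cluster the UV mitotic sum was 1.80 times the control [1.13, 3.05], on 19 control counts. The vitamin D sum there was 0.441 times the UV sum [0.248, 0.732].

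Single suprabasal members lay in opposite directions. Tyms was at 4.14, 1.5 and 3.30 CPM and Mcm6 at 6.23, 2.37 and 3.05 CPM, lowest in the UV library. Rrm2 was at 10.2, 16.3 and 14.0 CPM, highest there (ratio to control 1.61 [1.39, 1.85]). In the control, Rrm2 was at a higher CPM in suprabasal-like than in basal-like cells (6.57), on 501 and 67 counts, while Mki67 was at 0.223 CPM on 11 counts in suprabasal-like and at 10.9 CPM in basal-like cells. Rrm2 in granular cells was at 3.58, 2.01 and 4.09 CPM, on 6, 3 and 15 counts. Pcna stayed at 55.4, 45.4 and 53.3 CPM and Hmgb2 at 51.5, 56.7 and 52.8 CPM. Top2a was at 2.46, 3.43 and 2.09 CPM, Ccnb1 at 0.588, 1.88 and 0.830 CPM, Cdk1 at 0.203, 0.531 and 0.162 CPM, and Birc5 at 0.162, 0.725 and 0.361 CPM, each highest in the UV library. Granular cells had 0, 1 and 1 counts of Cdk1 and 0, 6 and 1 of Top2a, too few to compare. The remaining named members were Ube2c (1.12, 1.59 and 1.17 CPM), Mcm2 (1.14, 0.628 and 1.03 CPM), Stmn1 (8.40, 8.94 and 12.0 CPM) and Tubb5 (39.7, 28.5 and 35.5 CPM), with Mcm5 and Uhrf1 under 10 counts in each library. Mki67, Top2a, Ccnb1, Cdk1, Birc5 and Ube2c together gave a small part of the control mitotic sum of this class. Most of that sum came from mitotic members not named for it. The transitional cluster, between the basal and suprabasal classes in markers, had mitotic sums of 46.7, 50.9 and 37.3 CPM and no cell with at least 3 mitotic members among 2073, 107 and 503 cells, which allows up to 0.145%, 2.80% and 0.596%.

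**Figure D3:**
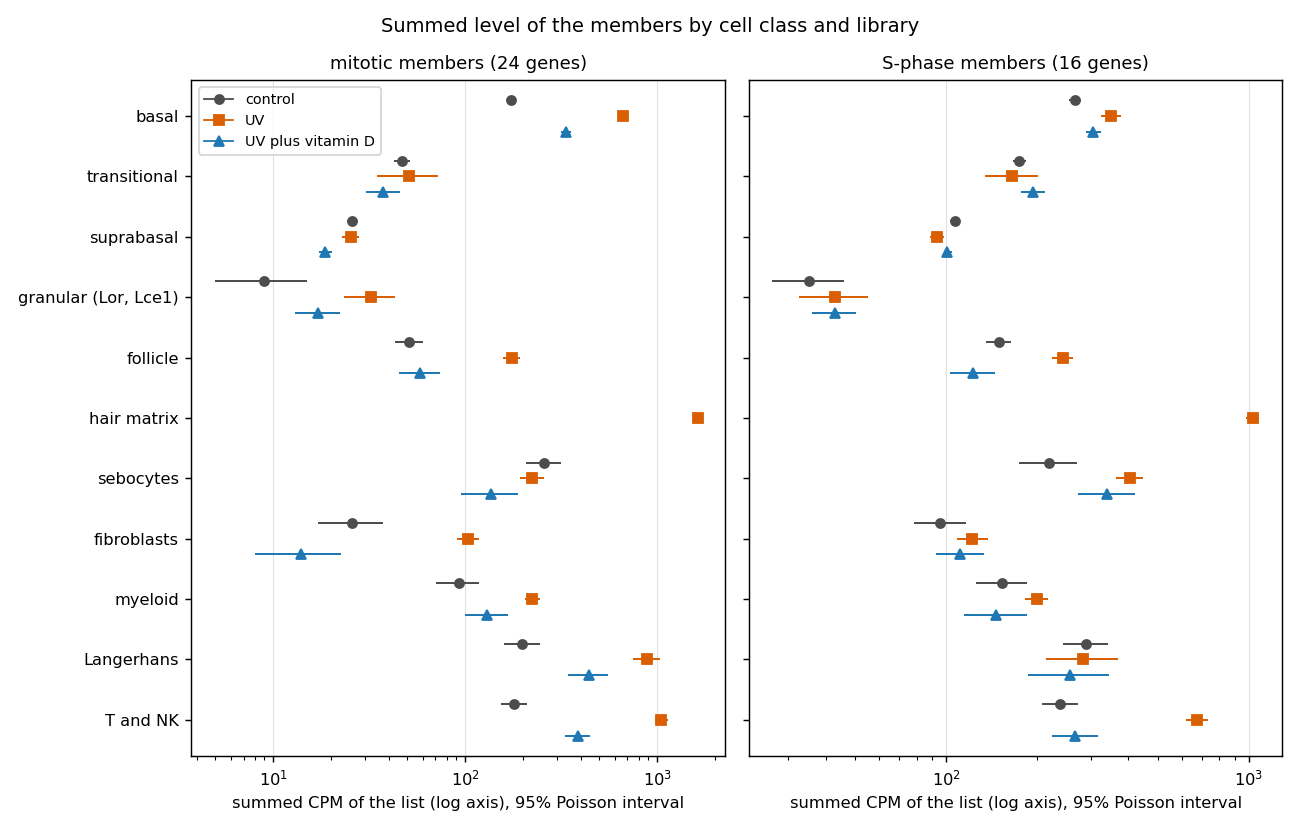
Summed CPM of the 24 mitotic (left) and 16 S-phase (right) members by cell class and library (log axis), with 95% Poisson intervals. Mitotic sums span from 8.96 CPM in control granular cells to 1632 CPM in hair matrix cells of the UV library, and the S-phase sums a narrower range.

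Follicle-like keratinocytes (525, 517 and 210 cells) came from different clusters: most control and vitamin D cells from one led by Krt79 and Defb6 (upper follicle; 437, 250 and 162 cells), and most UV cells from one with Sox9 and Alcam (outer root sheath; 88, 267 and 48 cells). Over the class, the mitotic sum was 51.1, 175 and 58.3 CPM and the S-phase sum 149, 243 and 123 CPM. In the UV library 20 of 26 members were higher than in the control and 0 lower, while 23.5% of 8786 genes were higher and 12.9% lower. In the vitamin D library 18 of 23 were lower than in the UV library and 0 higher, while 24.4% of 8147 genes were lower and 11.1% higher. Within the clusters the mitotic ratio of UV to control was smaller than the 3.42 [2.86, 4.12] of the class, at 1.77 [1.41, 2.26] in the outer root sheath cluster and 1.37 [0.951, 1.97] in the upper follicle cluster. The ratio of vitamin D to UV was 0.333 [0.257, 0.427] over the class and 0.567 [0.327, 0.947] in the upper follicle cluster. It was not computed for the outer root sheath cluster, with 48 vitamin D cells. The share of cells with at least 3 mitotic members was 3.41%, 5.62% and 4.17% in the outer root sheath cluster (3, 15 and 2 cells), with wide intervals, and 0.229%, 0 and 0 in the upper follicle cluster (of 250 and 162 cells, allowing up to 1.20% and 1.85%).

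In the follicle-like class Cdk1 was at 0.989, 14.8 and 3.24 CPM, Mki67 at 6.59, 18.1 and 4.86 CPM, and Top2a at 4.62, 19.1 and 8.10 CPM. Ube2c was at 2.31, 24 and 10.5 CPM, Birc5 at 0.989, 5.93 and 3.24 CPM, and Ccnb1 at 0.659, 5.60 and 0.810 CPM. All 6 were highest in the UV library. Among S-phase members, Mcm2 (4.29, 17.8 and 0.810 CPM), Mcm5 (1.65, 6.59 and 0.810 CPM), Rrm2 (5.28, 14.8 and 2.43 CPM), Tyms (6.26, 17.8 and 5.67 CPM) and Uhrf1 (0.659, 6.26 and 0 CPM) had the same order at the top. Mcm6 (19.8, 18.4 and 16.2 CPM), Pcna (73.5, 82.7 and 64.0 CPM) and Hmgb2 (69.9, 78.4 and 60.7 CPM) did not pass 1.5-fold, while Stmn1 had 101, 240 and 37 counts and Tubb5 was at 118, 252 and 143 CPM. Within the outer root sheath cluster Mki67 was at 32.4, 33.5 and 26.3 CPM, so its difference over the class was not seen inside that cluster, whereas Cdk1 was at 6.49, 30.7 and 13.1 CPM on 3, 44 and 3 counts.

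**Figure D4:**
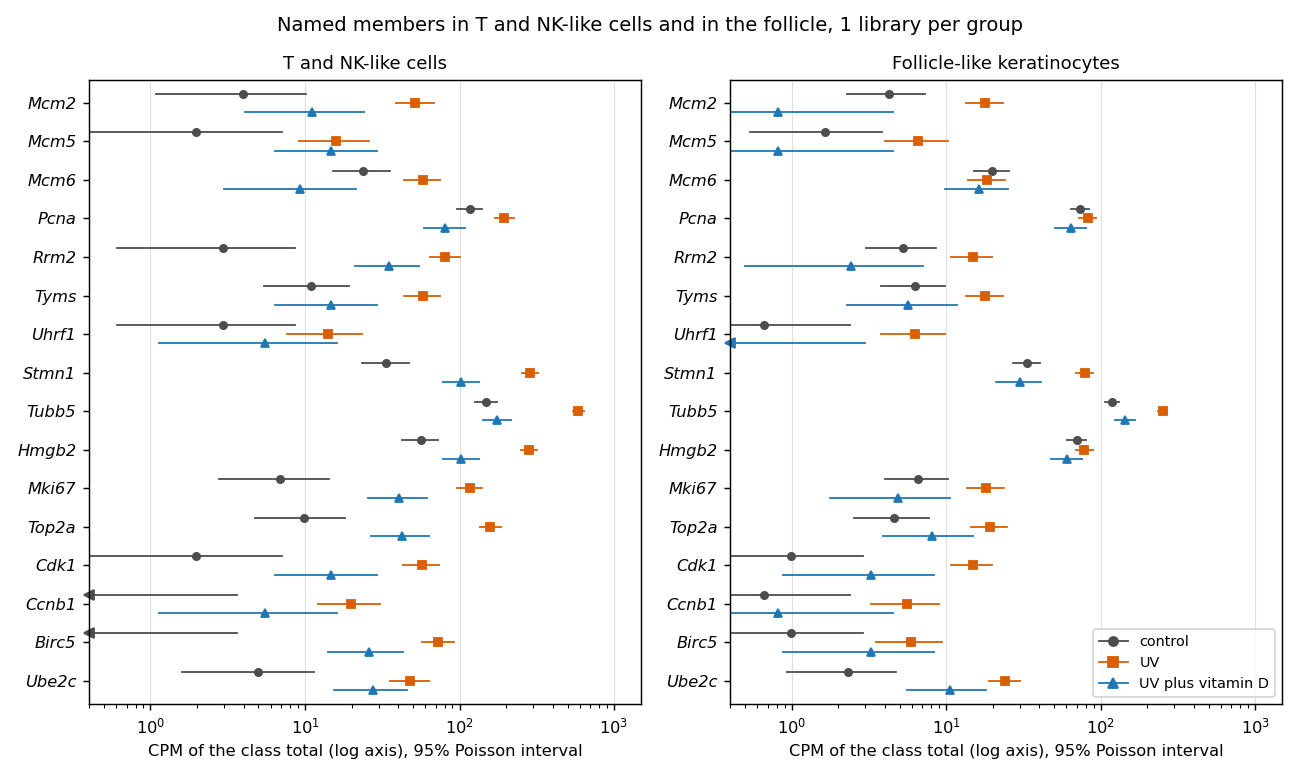
CPM of the 16 named members in T and NK-like cells (left) and follicle-like keratinocytes (right) by library (log axis), with 95% Poisson intervals; an arrowhead marks 0 counts. In T and NK-like cells the UV library is highest for all 16 members, and in the follicle Mcm6, Pcna and Hmgb2 overlap between libraries.

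Hair matrix-like cells formed 1 cluster of 298 cells, led by Krt71, Krt25 and Krt28. All were from the UV library, so the cluster may be that library and no comparison could be made. The name rests on a combined list of hair matrix and shaft markers, of which 7 of 15 measured were found in at least 25% of cells. Matrix, shaft and inner root sheath cells were not told apart. All 43 members were detected, and 41.9% [36.3, 47.8] of cells had at least 3 mitotic and 31.2% [26, 36.8] at least 3 S-phase members, with 25.5% having both. Of all UV cells with at least 3 mitotic members, 36.2% were in this cluster and 19.4% in the basal-like class. Top2a was at 206 CPM [188, 226], Ube2c at 211 [192, 232], Mki67 at 173 [156, 191], Cdk1 at 165 [148, 183], Birc5 at 77.1 [65.8, 89.7] and Ccnb1 at 64.6 [54.3, 76.2]. Each of these was above its level in basal-like cells of the same library. Pcna was at 240 CPM [220, 262], Rrm2 at 145 [129, 162], Mcm2 at 82.6 [70.9, 95.6], Tyms at 80.3 [68.8, 93.1], Mcm6 at 48.0 [39.2, 58.1], Uhrf1 at 46.6 [38.0, 56.6] and Mcm5 at 35.5 [28.0, 44.4]. In basal-like cells of the UV library Mcm2 was at 13.0 CPM and Mcm6 at 33.0 CPM, below these levels. Stmn1 was at 424, Tubb5 at 958 and Hmgb2 at 373 CPM.

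T and NK-like cells (130, 173 and 59 cells) held most members at a higher level in the UV library than in the control. Cenpa and Rrm1 were the 2 members with enough counts that did not pass 1.5-fold, each with a ratio of 1.28 ([0.979, 1.69] and [0.849, 1.93]). The mitotic sum was 180 CPM [155, 208] in the control, 1053 [991, 1119] in the UV library and 387 [337, 443] in the vitamin D library. Cenpa alone gave 99 of the 182 mitotic counts of the control. The UV to control ratio of the sum was 5.86 [5, 6.90] with it and 11.3 [9.03, 14.3] without it. The S-phase sum was 238, 674 and 267 CPM. At least 3 mitotic members were found in 1.54% [0.187, 5.45], 34.7% [27.6, 42.3] and 18.6% [9.69, 30.9] of cells, and without thinning in 4.62%, 42.8% and 23.7%. Of the members with enough counts, 27 of 29 were higher in the UV library than in the control and 0 lower, while 22.5% of 6708 genes were higher and 22.6% lower. In the vitamin D library 28 of 31 were lower than in the UV library and 0 higher, while 24% of 6020 genes (1442) were lower and 23.5% higher.

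The class came from different clusters: a Trdc-led cluster of 121, 35 and 34 cells (gamma delta T cell genes) that held most control cells, and a Gzmc-led cluster of 9, 138 and 25 cells that held most UV cells. Within the Trdc-led cluster the mitotic share was 1.65% [0.201, 5.84], 28.6% [14.6, 46.3] and 11.8% [3.30, 27.5], and within the Gzmc-led cluster 0 of 9 cells, 36.2% [28.2, 44.8] and 28.0% [12.1, 49.4]. In the Trdc-led cluster Mki67 was at 7.36, 57.6 and 27.2 CPM on 7, 15 and 10 counts. The order of the libraries was thus the same inside the Trdc-led cluster. The median depth of the class was 6705, 3989 and 7341 counts. Spinous keratinocyte markers summed to 32242, 24487 and 44339 CPM in these cells and T and NK markers to 2729, 6913 and 4021 CPM, and the part of keratinocyte RNA in the result was not tested.

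In the class as a whole Mki67 was at 6.91, 117 and 40.6 CPM, Top2a at 9.88, 158 and 42.4 CPM, and Cdk1 at 1.98, 56.8 and 14.8 CPM. Birc5 had 0, 73 and 14 counts (0, 72.8 and 25.8 CPM) and Ccnb1 0, 20 and 3 counts, and 0 counts allow up to 2.96 CPM in the control. Ube2c was at 4.94, 47.8 and 27.7 CPM. The S-phase members followed: Mcm2 at 3.95, 51.8 and 11.1 CPM, Mcm5 at 1.98, 15.9 and 14.8 CPM, Mcm6 at 23.7, 57.8 and 9.22 CPM, and Rrm2 at 2.96, 80.7 and 35.0 CPM. Here, unlike in basal-like cells, the helicase genes stood apart between UV and control, with ratios of 13.1 [4.83, 49.9] for Mcm2 and 2.44 [1.49, 4.10] for Mcm6; the difference between the classes was not tested. Tyms was at 10.9, 57.8 and 14.8 CPM, Uhrf1 at 2.96, 14.0 and 5.53 CPM and Pcna at 117, 195 and 81.1 CPM. Stmn1 was at 33.6, 287 and 103 CPM, Tubb5 at 149, 587 and 175 CPM and Hmgb2 at 56.3, 283 and 103 CPM.

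Myeloid-like cells (134, 588 and 90 cells) were mostly Fcna-led macrophages in the control (114) and vitamin D (75) libraries and Ly6c2-led monocytes in the UV library (343). Their mitotic sum was 92.3, 224 and 130 CPM, and 0 of 134, 13 of 588 (2.21%) and 1 of 90 (1.11%) cells had at least 3 mitotic members. Against the control, 15 of 18 members were higher in the UV library and 0 lower, while 32.0% of 8277 genes were higher and 11.9% lower. Between vitamin D and UV 12 of 19 were lower and 0 higher, while 27.7% of 8174 genes were lower and 15.1% higher. Mki67 was at 1.36, 20.8 and 13.8 CPM on 1, 67 and 7 counts, and Top2a at 1.36, 20.8 and 3.94 CPM on 1, 67 and 2 counts, while Pcna was at 115, 89.4 and 116 CPM. Within the Fcna-led cluster the mitotic ratio of UV to control was 1.68 [1.25, 2.29], smaller than the 2.43 [1.89, 3.16] of the class. The ratio of vitamin D to control was 1.41 [0.990, 2.01] in the class but 0.718 [0.451, 1.12] in that cluster. The vitamin D cells of the cluster had 0 counts of Mki67. Cenpa gave 52 of the 63 mitotic counts of that cluster in the control, at 88.5, 94.9 and 64.5 CPM over the libraries. Without Cenpa the UV to control ratio was 4.58 [2.42, 9.57] in the cluster and 6.18 [3.56, 11.7] in the class. The vitamin D to control ratio without Cenpa was 0.663 [0.181, 2.07] in the cluster and 3.91 [2.02, 8.06] in the class. Langerhans-like cells were few, and 1 of 57, 6 of 42 and 3 of 23 cells had at least 3 mitotic members (1.75% [0.0444, 9.39], 14.3% [5.43, 28.5] and 13.0% [2.78, 33.6]), with intervals that overlap. In these cells Langerhans markers summed to 39384, 110857 and 72862 CPM and basal keratinocyte markers to 18750, 1663 and 8897 CPM, and the part of keratinocyte RNA in the result was not tested.

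Over all cells the mitotic sum was 54.2, 212 and 49.0 CPM, and 0.705%, 6.33% and 1.32% of cells had at least 3 mitotic members. These totals mix the levels within classes with the makeup of the libraries: basal, transitional, suprabasal and follicle-like keratinocytes together were 92.0%, 47.9% and 90.6% of cells. Of the 64, 345 and 82 cells with at least 3 mitotic members, the basal-like class held 78.1% in the control, 19.4% in the UV library and 74.4% in the vitamin D library. In those whole libraries the vitamin D sum lay near the control (ratio 0.903 [0.863, 0.945]), whereas in basal-like cells it was above it.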

How the data were processed

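Whole skin cells of 3 mouse libraries (control, UV, UV plus vitamin D, called vitamin D; 1 per group) were profiled by single-cell RNA sequencing. The authors deposited a table of whole-number counts per gene and cell for each library. The submitters' processing notes name FastQC, fastp, STAR and featureCounts and the build GRCh38, a human build, although the gene symbols are mouse symbols; versions, and whether counts are molecules or reads, are not given in the sources used here. If they are reads, intervals are too narrow. A ribosomal RNA gene model took 11.4%, 10.4% and 7.22% of counts.

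Cells with at least 200 genes and at most 20% mitochondrial counts were kept, which left out 17, 35 and 34 barcodes for few genes and 3, 16 and 1 for mitochondrial counts. No doublet caller was run and none were removed. Counts were scaled to 10000 per cell and clustered without library correction (2000 variable genes, 30 components, 15 neighbours, Leiden resolution 1; scanpy 1.11.5, leidenalg 0.10.2, scikit-learn 1.9.0, numpy 2.4.6, scipy 1.17.1, pandas 2.3.3, Python 3.11.15). The members and the other cell cycle lists were removed from the variable genes. A cluster was named from at least 3 markers found in 25% of its cells with a lead of 1 log2 unit or of 2 markers among its top 10 genes, a margin set after seeing the data. Clusters left unnamed, of which the largest were led by Stfa3 (0.176%, 10.3% and 0.774% of cells) and by Rptn and Flg (1.19%, 6.97% and 1.58%), entered no class. A smaller one with basal markers, led by Mmp13, held 43 cells, all from the UV library. Its Top2a, Mki67, Mcm2 and Mcm5 were at 19.6, 39.2, 22.9 and 13.1 CPM, on 6, 12, 7 and 4 counts. Top2a and Mki67 were thus below, and Mcm2 and Mcm5 above, their levels in basal-like UV cells.

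Levels are summed counts scaled to 1000000 (CPM). Shares use exact Clopper-Pearson intervals, levels exact Poisson intervals and ratios of levels exact conditional intervals, all at 95%. Ratios of shares use approximate 95% intervals on the log scale. A count of 0 allows 3 counts. For the promoters, the RefSeq table lacked Mcm4, Gins2, Ccne2, Ccna2, Kif20a, Tpx2, Aurkb and Stmn1. Members and lists were chosen with earlier results of these data known. Values in every library are given for 16 members in basal, follicle and T and NK-like cells, and for most of them in suprabasal-like cells. In basal-like cells they are also given for the 2 highest and 2 lowest ratios of each list among members with at least 50 counts. Rrm1, Tk1, Cdc6, Mcm3, Cenpa outside basal-like cells and the genes of the closing section were named after their values were seen. Sums without Cenpa were added after seeing the data. Scripts were tested on simulated data. Alternatives covered clustering, naming, normalization, pseudocounts, the count minimum, the fold, thinning and the number of genes per cell.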

Additional observations from a re-analysis of the deposited data

How the results depend on the processing

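In basal-like cells the mitotic sum, the mitotic share and the count of members higher in UV than control kept their direction under every alternative run. The count of 28 members higher in UV than control ran from 20 to 34. The mitotic sum, UV over control (3.84), was 3.32 at resolution 0.5, 3.55 at resolution 2, 3.49 with library means subtracted, 4.44 with each cell classed by its own markers, 3.48 with cells weighted the same, 3.55 with 50 correlated genes also out, 5.17 with mixed clusters as basal and 3.18 with a marker lead of 2. UV plus vitamin D over UV (0.508) was 0.450 with members kept among the variable genes, 0.545 and 0.557 at resolutions 0.5 and 2, 0.473 with median-of-ratios scaling, 0.556 with cells weighted the same, 0.419 with mixed clusters and 0.572 with the lead of 2. UV plus vitamin D over control (1.95) was 1.77 with members kept, 1.81 at resolution 0.5, 2.39 by own markers, 2.16 with mixed clusters and 1.82 with the lead of 2. The S-phase sum, UV over control (1.32), was 1.21 with cells weighted the same and 1.45 with mixed clusters. UV plus vitamin D over UV (0.874) was 0.795 with 50 genes out, and over control (1.15) 1.06 with members kept and 1.28 by own markers. The mitotic share, UV over control (4.97), was 7.75 with at least 5 genes and 8.91 with mixed clusters, and UV plus vitamin D over UV (0.552) was 0.797 without thinning. The S-phase share, UV over control (2.04), was 1.02 without thinning, 1.13 with at least 2 genes and 3.44 with mixed clusters. UV plus vitamin D over UV (0.759) was 0.433 with at least 5 genes, 0.994 with at least 2 genes and, in the other direction, 1.22 without thinning. Over control (1.54) it reversed to 0.866 with at least 5 genes. Of the counts, members lower in UV than control (1) were 0 with members kept, at either resolution, with library means subtracted, by own markers, with 1 or 10 CPM added, with at least 50 counts, at 2-fold, with 50 genes out, with mixed clusters and with the lead of 2, and 2 with at least 1 count. Members higher in UV plus vitamin D than UV (0) were 1 with cells weighted the same, with at least 1 count and with mixed clusters, and those lower (24) were 13 with 10 CPM added. Members higher in UV plus vitamin D than control (21) were 9 with 10 CPM added and 13 at 2-fold, and those lower (0) were 1 with members kept. The cause was not tested. The 50 correlated genes, mixed clusters, lead of 2 and sums without Cenpa (3.75 for UV over control in basal-like cells) were chosen after seeing the data.

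No paired analysis was possible because each group had 1 library. For the same reason leaving out a library gives no comparison, no difference has a replicate check, and library preparation and treatment cannot be told apart. Depth limits the members with under 20 counts, the suprabasal and granular shares, and classes under about 50 cells.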

Other observations

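Sebocyte-like cells (62, 145 and 37 cells) had at least 3 mitotic members in 8.06%, 7.59% and 8.11% of cells. The UV share was 0.941 times the control, with a wide interval [0.341, 2.59]. The summed mitotic levels of sebocyte-like cells were 257, 223 and 136 CPM. Their S-phase sum was 219, 404 and 340 CPM.

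Fibroblast-like cells (204, 382 and 193 cells) had mitotic sums of 25.8, 104 and 13.9 CPM. The UV sum was 4.02 times the control [2.75, 6.08]. The class came from a Pi16-led cluster of 152, 188 and 147 cells, where that ratio was 6.83 [4.15, 12.0], and a Lum-led cluster of 52, 194 and 46 cells, where it was 1.78 [0.994, 3.47]. Top2a was at 0.861, 13.5 and 0 CPM, and Pcna at 47.3, 47.3 and 59.8 CPM. A cluster with fibroblast markers led by Crabp1, left unnamed, held 9, 96 and 15 cells, and in the UV library 25.0% [16.7, 34.9] of its cells had at least 3 mitotic members, with sums of 1122 CPM for mitotic and 678 CPM for S-phase members.

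Some cell cycle genes outside the members were more abundant in suprabasal-like than in basal-like cells. Ttk, a spindle checkpoint kinase, was at 80.6, 131 and 112 CPM in suprabasal-like cells and at 15.2, 13.0 and 21.9 CPM in basal-like cells of the control, UV and vitamin D libraries. Tubb4b, a tubulin, was at 333, 405 and 463 CPM in suprabasal-like cells and 261, 253 and 376 CPM in basal-like cells. Clspn, a replication checkpoint protein, was at 1.18, 9.98 and 3.32 CPM in basal-like cells, and Nuf2, a kinetochore protein, at 1.08, 10.7 and 5.08 CPM, both with the order of the mitotic members.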
